A study of Mus musculus with 15 samples.

Results

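The 80 genes described here encode the proteins of the mouse cytosolic ribosome, the particle that translates messenger RNA outside mitochondria. They were picked by symbol from the 34372 genes of the deposited table: symbols of Rpl or Rps with a number and at most 1 further letter, together with Rplp0, Rplp1, Rplp2 and Rpsa. Pseudogene symbols, the Rps6k kinases and Rps27l were left out. The large subunit accounts for 49 of the genes and the small subunit for 31. By position on GRCm38 (GENCODE M21), 4 lie on chromosome X (Rpl10, Rpl36a, Rpl39 and Rps4x), 3 are paralogs whose symbol ends in l (Rpl3l, Rpl10l and Rpl39l), and the other 73 are autosomal. The genes are spread over 19 chromosomes, with 14 on chromosome 7. All 79 genes other than Rps27 passed the filter on low values; Rps27 was listed at 0 in every library.

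Polyadenylated RNA was sequenced from 9 libraries of embryonic germ cells (EGC), which are pluripotent lines derived from primordial germ cells, and 6 of embryonic stem cells (ESC). Lines were grown on mouse embryonic fibroblast feeders, first in 2i with LIF and then in serum medium with LIF, and SSEA1-positive cells were sorted at passage 6. The header of the table gives 6 labels: XY EGC from E12.5 embryos (EGC 1, 2 and 3), XY EGC from E11.5 (EGC 4, 5 and 6), XX EGC from E11.5 (EGC 7 and 9), a single XO EGC from E11.5 (EGC 8), XX ESC (ESC 1, 2 and 3) and XY ESC (ESC 4, 5 and 6). The sources used here do not say whether the libraries under a label are separate lines or clones of 1 line, so p-values measure only the spread between these libraries, and label and line cannot be told apart.

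A ribosome holds 1 copy of nearly every ribosomal protein, assembled on ribosomal RNA in the nucleolus, and cells make the set in matched amounts. Their messenger RNAs are among the most abundant of growing cells, and most begin with a terminal oligopyrimidine (TOP) tract, a run of pyrimidines after a first C, through which mTOR signalling tunes their translation. The genes are short and highly expressed, and mammalian genomes carry many processed pseudogenes of them, some with the same coding sequence as the parent gene. In cells with 2 X chromosomes, 1 is normally silenced after differentiation begins, while pluripotent mouse cells can keep both active.

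The sequences that matter most for reading the values are those of the X-linked genes beside their autosomal relatives, because a copy with the same bases cannot be told from the parent by short reads while a diverged paralog can. Over its 645 coding bases Rpl10 differed from the processed copy Rpl10-ps3, on chromosome 9, at 0 positions and from the paralog Rpl10l, on chromosome 12, at 98 positions (84.8% identity). Rpl39 differed from Rpl39l, on chromosome 16, at 23 of 156 positions (85.3% identity). The windows run 5′ to 3′ over coding bases 334 to 393 of Rpl10 and 94 to 153 of Rpl39 (GENCODE M21 transcripts), with capitals at the bases that differ between gene and paralog, 14 in the first window and 13 in the second.
Rpl10: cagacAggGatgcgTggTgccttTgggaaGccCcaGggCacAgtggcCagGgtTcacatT
Rpl10-ps3: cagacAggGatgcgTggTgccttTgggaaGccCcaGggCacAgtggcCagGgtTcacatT
Rpl10l: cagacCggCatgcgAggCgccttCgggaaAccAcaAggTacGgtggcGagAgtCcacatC
Rpl39: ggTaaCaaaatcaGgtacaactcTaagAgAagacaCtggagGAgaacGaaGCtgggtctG
Rpl39l: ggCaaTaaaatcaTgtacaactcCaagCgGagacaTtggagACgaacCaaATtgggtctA

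Starts were read from RefSeq (GRCm38.p6) for 60 of the 80 genes. A C followed by at least 4 pyrimidines, read on the gene's strand, stood exactly at an annotated start in 13 of the 60 (21.7%), against 813 of 27025 genes in the whole table of starts (3.01%). Within 5 bases of a start the counts were 27 of 60 (45%) and 5718 of 27025 (21.2%). Examples are shown with the tract in capitals, in windows of 30 bases whose base 16 is the annotated start: Rps6, the substrate of S6 kinase, at chr4:86857353-86857382 on the minus strand; Rpl15, a large-subunit protein of the core, at chr14:18270972-18271001 on the minus strand; Rps10, a small-subunit protein near the messenger RNA entry, at chr17:27635230-27635259 on the minus strand; and Rps27, a zinc-binding small-subunit protein, at chr3:90213634-90213663 on the minus strand.
Rps6: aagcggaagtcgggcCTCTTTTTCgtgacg
Rpl15: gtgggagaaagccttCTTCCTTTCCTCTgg
Rps10: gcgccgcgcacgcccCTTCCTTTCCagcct
Rps27: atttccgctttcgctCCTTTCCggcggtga

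The values are TPM, a transcript measure in which a gene's reads are divided by its length and scaled so that each library sums to the same total. Levels of different genes can therefore be compared, but the depth of the libraries is unknown and a rise of 1 group of genes lowers the share left for all others. The 80 genes together took 17.01% to 20.9% of all TPM. Mitochondrial transcripts took 4.92% to 7.85% beside them. Summed feeder fibroblast markers (13 of 16 genes tested; Pdgfra and Lum below 1 TPM in all libraries) stood at 564 to 841 TPM, summed germ cell markers at 145.6 to 258 TPM, and 7 of 8 pluripotency markers reached 1 TPM, Fut4 staying below it in all libraries. Dppa5a held most of the pluripotency sum (mean 8192 TPM over all libraries, with Pou5f1 next at 1300 TPM). Sparc (246.7 TPM), Fn1 (219.9 TPM) and Vim (109.2 TPM) held most of the feeder sum. In bulk RNA, fewer cells of a type and less RNA per cell cannot be told apart.

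The summed level of the ribosomal protein genes was lower in XX than in XY libraries. It was 17.01%, 17.3% and 18.2% of TPM in the 3 XX ESC libraries and 19.7%, 20.03% and 20.9% in the 3 XY ESC libraries. In germ cell lines it was 18.4% and 17.01% in XX, 19.8%, 19.1% and 19.4% in XY at E11.5, and 18.5%, 19.95% and 20.4% in XY at E12.5. All XX libraries thus lay below all XY libraries, while the XO library, at 17.8%, lay among the XX ones. The means were 17.5% ± 0.614 in XX ESC and 20.2% ± 0.635 in XY ESC (SD, n = 3 each). With near-identical copies added the range over libraries was 23.7% to 28.98%, and XX ESC stood at 24.4% ± 0.943 against 28.4% ± 0.557 in XY ESC. The XX EGC library at 25.9% then lay above the lowest XY library, EGC 1 at 25.7%. These sums are descriptions and were not tested.

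**Figure D1:**
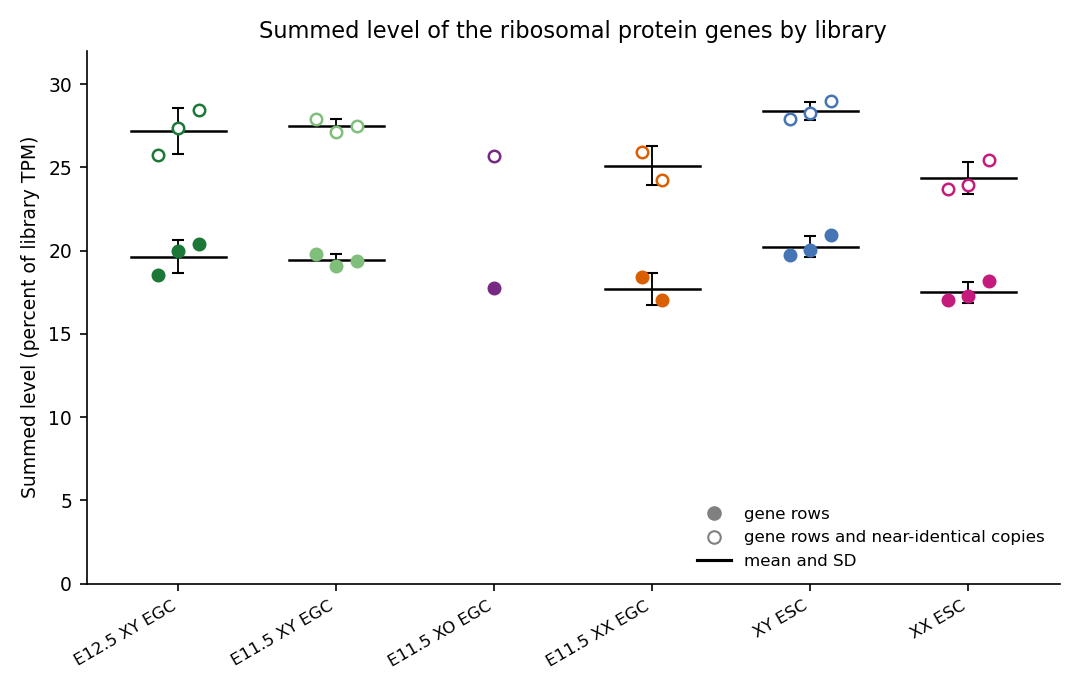
Summed TPM of the 80 ribosomal protein genes as a percentage of each library's TPM, on their own and with near-identical copies added, by header label; points are libraries and lines are label means with SD. The XX libraries sit between 17.01% and 18.4% and the XY libraries between 18.5% and 20.9% on the genes alone.

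The genes themselves were high and even. A mean of at least 1000 TPM over the 15 libraries was reached by 63 of the 80, led by Rps24 (6325 TPM, a small-subunit protein mutated in Diamond-Blackfan anaemia in humans), the acidic stalk protein Rplp1 (5813 TPM), Rpl23a (5504 TPM, which contacts the signal recognition particle at the exit tunnel), Rps26 (5397 TPM) and Rps18 (5292 TPM). At the other end stood Rpl3l (2.54 TPM), a paralog of heart and skeletal muscle, Rpl39l (26.4 TPM) and Rpl10l (34.05 TPM), both paralogs of male germ cells, and Rpl5 (76.2 TPM), which carries 5S RNA into the large subunit. Of the 14 genes under 400 TPM, copies held over 90% of the summed level of 11, Rpl5 among them, and none of that of the 3 paralogs. The table lists 641 rows whose transcripts align to a member at 90% identity or more over at least 50% of the copy. Of these rows 98 had a mean of at least 1 TPM, and 24 of the 641 were 100% identical over the aligned part.

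**Figure D2:**
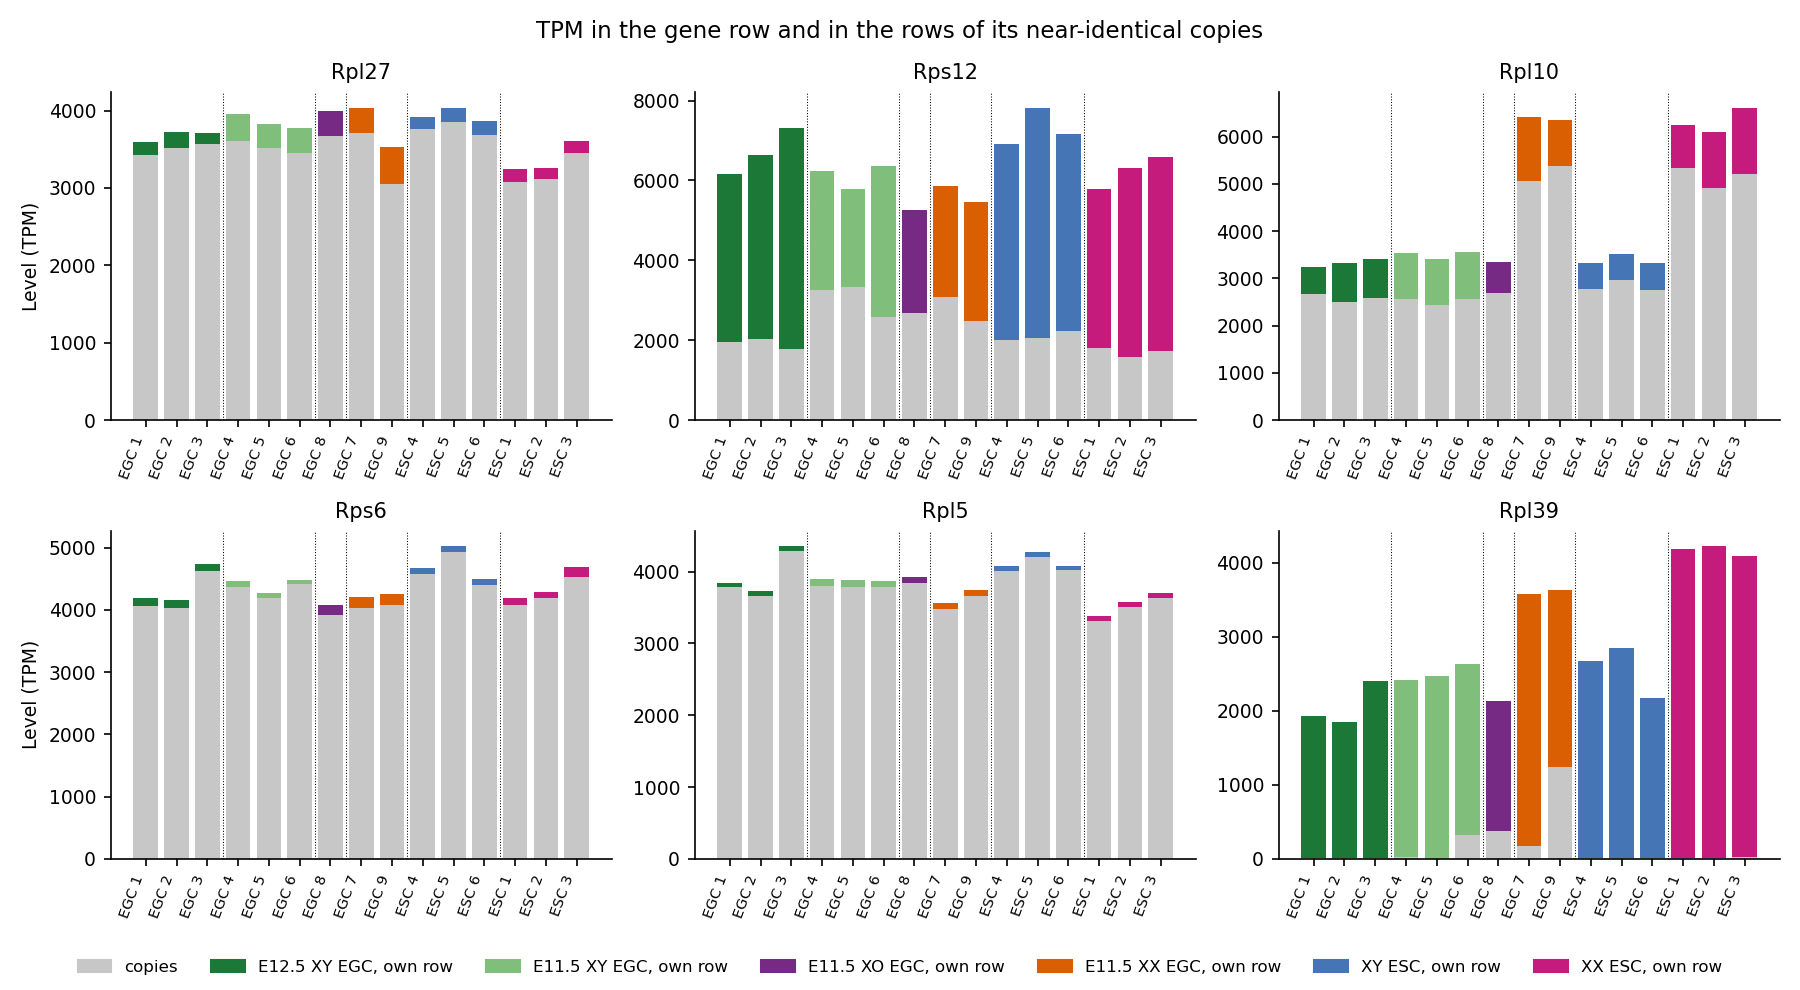
TPM of Rpl27, Rps12, Rpl10, Rps6, Rpl5 and Rpl39 in each library, as stacked bars of the gene's own row (colour, by header label) on the rows of its near-identical copies (grey). Copies hold nearly all of Rps6 and Rpl5, and Rpl10 with copies stands between 6093 and 6614 TPM in the XX libraries and between 3232 and 3561 TPM in the others.

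With the copies added, 77 of the 80 genes had a mean of at least 1000 TPM, and the exceptions were the 3 paralogs. Copies held 50% or more of the summed level of 20 genes, 90% or more for 11 and under 1% for 40. Rps27 itself was listed at 0, while Gm9846, a row on chromosome 9 that is 100% identical to it, averaged 6096 TPM. Rps6 rose from 119.8 to 4416 TPM, Rpl5 from 76.2 to 3862 TPM and Rpl10 from 885.8 to 4379 TPM. A row of one of these 20 genes is therefore uncertain on its own. Over libraries the coefficient of variation of the members with copies had a median of 11.2%, and it stayed below 15% for 58 of the 80. It was lowest for Rpl6 (5.44%) and highest for Rpl39l (69.6%), Rpl10l (64.5%) and Rpl10 (33.0%), which are described next.

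The 4 X-linked genes were higher in XX than in XY cells. Rps4x, the X-linked gene of a small-subunit protein whose human counterpart has a homologue on the Y chromosome (chromosome X, 102184941 to 102189394, minus strand), stood at 6323, 6272 and 6271 TPM in XX ESC and at 3904, 4019 and 3385 TPM in XY ESC. In germ cell lines it was 5823 and 5636 TPM in XX, 3947, 3851 and 3857 TPM in XY at E11.5, and 3717, 3208 and 4070 TPM in XY at E12.5, and XO was at 3494 TPM. The lowest XX library was above the highest library of any other label. The difference was 0.74 ± 0.08 (log2, SE) in ESC and 0.56 ± 0.09 at E11.5 in EGC (limma, adjusted p = 1.3e-05 and 0.00033), or 1.67-fold and 1.47-fold.

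Rpl36a, a large-subunit protein at the tRNA exit site (chromosome X, 134585654 to 134588062, plus strand), showed the same order. Its row stood at 4793, 5164 and 5504 TPM in XX ESC against 3073, 3544 and 3164 TPM in XY ESC. In EGC it was 5705 and 5789.7 TPM in XX, compared with 3772, 3569 and 3866 TPM in XY at E11.5 and 2723, 2954 and 3156 TPM in XY at E12.5. XX and the other labels did not overlap, and XO was at 3320.0 TPM. The log2 difference was 0.66 ± 0.08 in ESC and 0.62 ± 0.09 in EGC (limma, adjusted p = 1.5e-05 and 7.0e-05).

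Rpl10, which joins the large subunit late and is needed for subunit joining (chromosome X, 74270812 to 74273135, plus strand), differed between the row and the sum with its copies. Its own row stood at 913.5, 1179 and 1412 TPM in XX ESC and 538.3, 557.4 and 571.1 TPM in XY ESC. At E11.5 the row was 1341 and 970.5 TPM in XX EGC and 970.7, 984.5 and 1007 TPM in XY EGC, so that these libraries overlapped. With the identical copy and the others added, Rpl10 was 6256, 6093 and 6614 TPM in XX ESC and 3314, 3514 and 3323 TPM in XY ESC. It was 6412 and 6357 TPM in XX EGC, 3532, 3412 and 3561 TPM in XY EGC at E11.5 and 3344 TPM in XO. On the row the log2 difference was 1.05 ± 0.17 in ESC (limma, adjusted p = 0.00019) and 0.21 ± 0.18 in EGC (adjusted p = 0.37). With copies it was 0.90 ± 0.05 and 0.87 ± 0.06 (adjusted p = 3.4e-08 and 2.3e-07). Rpl10-ps3 alone, on chromosome 9, averaged 5147 TPM in XX ESC and 2821 TPM in XY ESC.

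Rpl39, a small protein of the exit tunnel (chromosome X, 37082520 to 37085402, minus strand), was 4182, 4209 and 4076 TPM in XX ESC and 2672, 2842 and 2163 TPM in XY ESC. In EGC the row was 3407 TPM in EGC 7 and 2390.4 TPM in EGC 9, beside 2381, 2464 and 2307 TPM in XY at E11.5. EGC 9 lay within the XY range, and its copy row Rpl39-ps held 1243 TPM there and 169.1 TPM in EGC 7. The log2 difference was 0.71 ± 0.13 in ESC (limma, adjusted p = 0.00070) and 0.26 ± 0.15 in EGC (adjusted p = 0.16), which with copies became 0.71 ± 0.10 and 0.53 ± 0.12 (adjusted p = 9.7e-05 and 0.0022). The 4 genes with copies took 2.19% ± 0.049 of TPM in XX ESC, 1.30% ± 0.094 in XY ESC (SD, n = 3 each), 2.15% in XX EGC and 1.23% in XO.

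**Figure D3:**
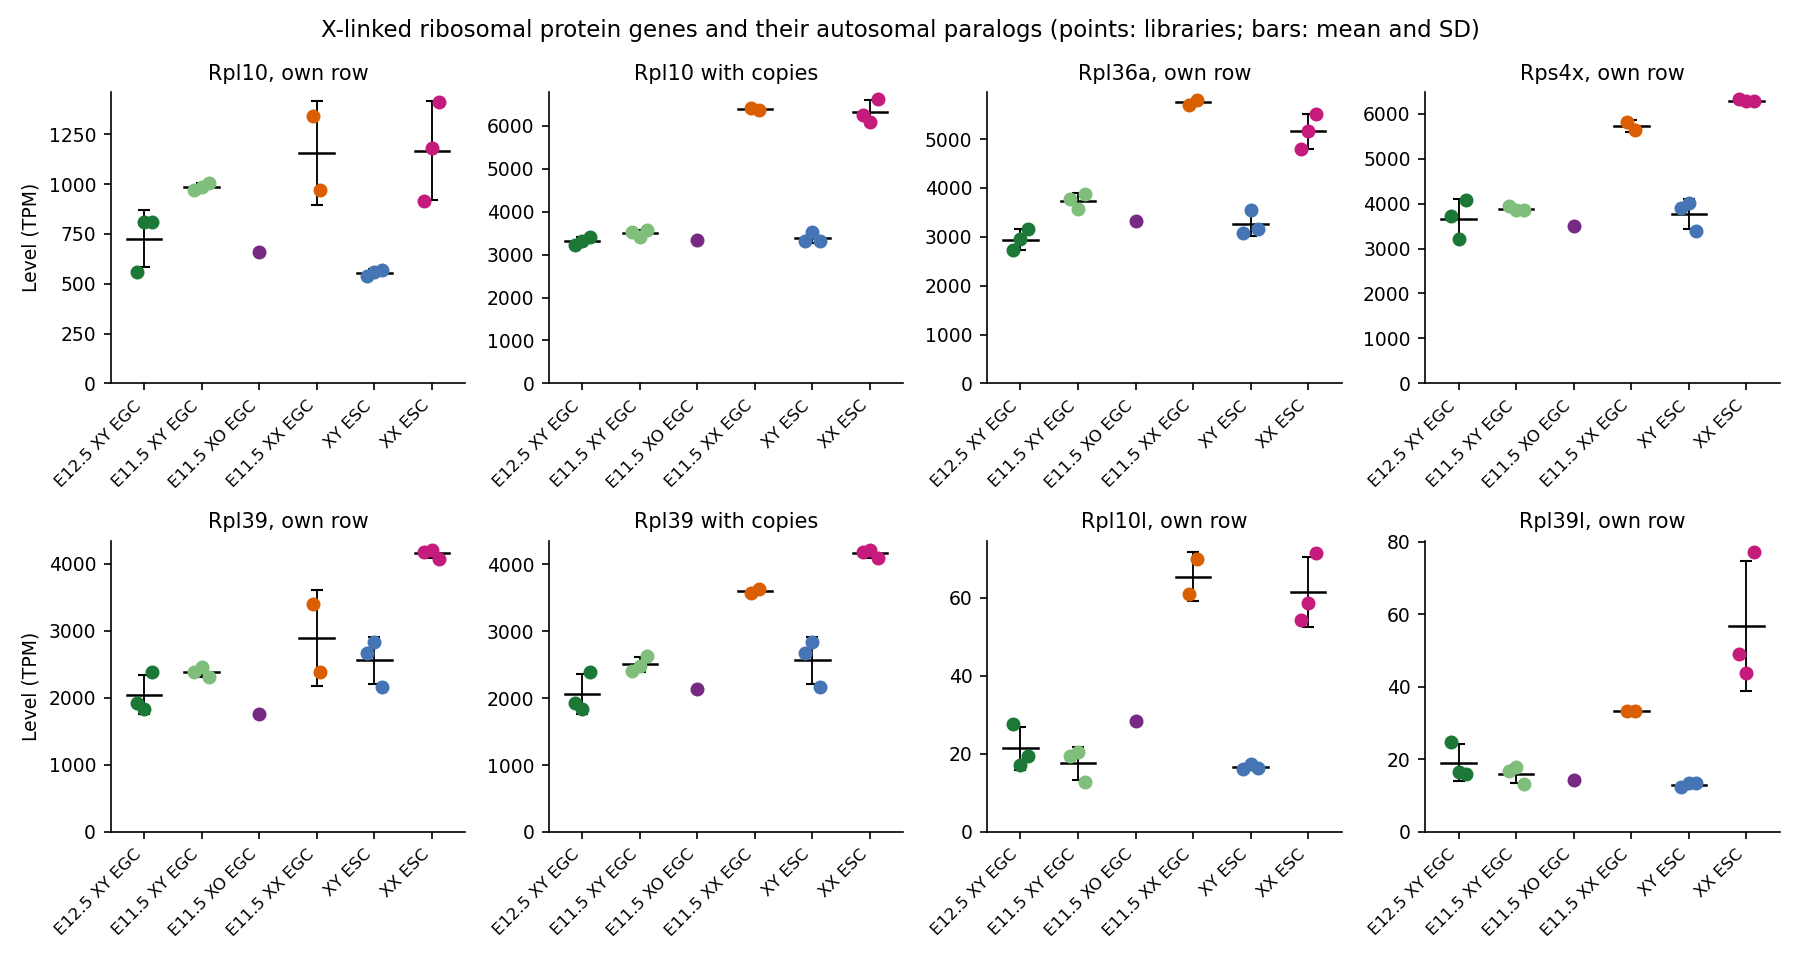
TPM in each of the 15 libraries, by header label, of the X-linked genes and of the paralogs Rpl10l and Rpl39l; points are libraries and bars are label means with SD; panels show a gene's own row or the row with copies. XX libraries lie above XY and XO libraries for Rps4x and Rpl36a, and for Rpl10 and Rpl39 once copies are added.

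The 2 autosomal paralogs of X-linked genes moved with them. Rpl10l, a retrogene of Rpl10 known for its role in male meiosis (chromosome 12, 66283379 to 66284401, minus strand), was 54.4, 58.5 and 71.6 TPM in XX ESC and 16.01, 17.4 and 16.4 TPM in XY ESC. It was 60.9 and 69.9 TPM in XX EGC, 19.5, 20.6 and 12.7 TPM in XY EGC at E11.5 and 28.5 TPM in XO. Every XX library lay above every XY library and above XO. The log2 difference was 1.82 ± 0.18 in ESC and 1.86 ± 0.20 in EGC (limma, adjusted p = 3.9e-06 and 1.1e-05), the largest of all 79 genes in EGC. Rpl39l, a paralog of Rpl39 in the exit tunnel of male germ cell ribosomes (chromosome 16, 10170226 to 10174911, plus strand), was 49.1, 43.9 and 77.1 TPM in XX ESC, 12.4, 13.4 and 13.4 TPM in XY ESC, 33.4 and 33.3 TPM in XX EGC and 16.8, 17.9 and 13.2 TPM in XY EGC at E11.5. Its log2 difference was 1.99 ± 0.19 in ESC and 1.03 ± 0.22 in EGC (limma, adjusted p = 3.4e-06 and 0.0017). The difference of these differences was -0.96 ± 0.29 (limma interaction, adjusted p = 0.042), and it was not called without the filter, with quantile normalisation, or without any one of EGC 4, 5, 7 and 9 or ESC 1, 4, 5 and 6. The third paralog, Rpl3l, stayed near 2.54 TPM and did not pass the test in either comparison (log2 0.11 and -0.16).

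Most other autosomal genes were lower in XX than in XY embryonic stem cells, a difference small per gene and shared by most of them. Of the 79 genes tested, 7 were higher and 52 lower, against 27.3% and 19.3% of all genes tested. Among the 72 autosomal genes outside the paralogs, 67 had a negative and 5 a positive difference, with a median of -0.23, while the median of all genes was 0.05. With copies added, all 73 were negative (median -0.27), and 6 genes were called higher and 58 lower, against 27.6% and 19.4% of all genes tested. Under quantile normalisation the calls were 7 higher and 21 lower, so that 25% of calls were higher against 11.9% as deposited, and the median was -0.12, beside -0.034 for all genes. The shares of all genes called under quantile normalisation are not given here. Whether the 21 genes lower stand apart from all genes can therefore not be read from this count. Without ESC 6 the number called lower was 33. Summed pluripotency markers were also higher in XX ESC (14221 to 14813 TPM against 8651 to 9037 TPM in XY ESC), with 5 of 7 tested called higher. Summed germ cell markers were higher too (208.2 to 245.7 against 189 to 202.5 TPM). Of these 6, however, only Dazl was called (82.8 against 24.1 TPM), and their median log2 difference was -0.11. The part of these markers in the result was not tested.

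Rpl13a, a large-subunit protein whose gene hosts small nucleolar RNAs (chromosome 7, 45125558 to 45128761, minus strand), fell most. It was 3198, 3293 and 3764 TPM in XX ESC and 5397, 5374 and 6209 TPM in XY ESC. At E11.5 it was 3468 and 2731 TPM in XX EGC and 5190.0, 4988 and 4878 TPM in XY EGC, with XO between them at 4215 TPM. No XX library reached an XY library in either cell type. The log2 difference was -0.73 ± 0.10 in ESC and -0.70 ± 0.12 in EGC (limma, adjusted p = 9.2e-05 and 0.00030), and adding copies left both as they were.

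Among the large-subunit genes, Rpl23a fell by 0.54 on the log2 scale in XX ESC (4167 ± 188 against 6073 ± 381 TPM; SD, n = 3 each) and Rpl12, at the base of the stalk, by 0.58. The row of Rpl12 was low (196 ± 4.34 against 294 ± 32.3 TPM), and with its copies it fell by 0.52. Rpl3, at the peptidyl transferase centre, fell by 0.37 (by 0.34 with copies) and Rpl4 by 0.32. In the small subunit, Rps25, needed for some internal ribosome entry sites, fell by 0.49, Rps28 by 0.49 (0.32 with copies, adjusted p = 0.066), Rps19, mutated in Diamond-Blackfan anaemia, by 0.31, and Rpsa, the laminin-receptor protein, by 0.30. All of these passed at an adjusted p under the threshold of 0.05 on their own rows. Rplp0 fell by 0.24, Rplp2 by 0.34 and Rpl11, the partner of Rpl5 in the 5S particle and in binding MDM2, by 0.22. Under quantile normalisation Rps19, Rpsa, Rplp0, Rplp2 and Rpl11 were not called, nor Rps19 without ESC 2 or 4, Rplp0, Rplp2 and Rpl11 without ESC 6, Rplp2 and Rpl11 without ESC 1, Rpl11 without ESC 2, or Rplp2 without the filter. Rpl38, linked to Hox translation in mice, gave -0.11 (adjusted p = 0.19) and Rplp1 gave -0.22 (adjusted p = 0.15). Rpl5 was called higher on its row (0.25) and lower with its copies (-0.22, limma, adjusted p = 0.012).

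At E11.5 the same contrast in germ cell lines gave 8 genes higher and 24 lower of 79, against 26.2% and 23.4% of all genes tested. The number called lower was thus near the share of all genes. The median of the other autosomal genes was -0.12, with 56 negative and 16 positive, beside 0.02 for all genes. With copies added, 6 were higher and 31 lower, against 26.5% and 23.6% of all genes tested, and the median was -0.20. Without EGC 4 the row count called lower was 15, and without EGC 9 it was 10. Rps19 fell by 0.51 (1895 ± 426 TPM in XX, n = 2, against 2659 ± 160 TPM in XY, n = 3; adjusted p = 0.0020), Rps15a by 0.43 and Rpl23a by 0.36. Summed pluripotency markers were 12621 to 13966 TPM in XX EGC and 10293 to 11576 TPM in XY EGC at E11.5. Dppa5a, which held most of this sum, was not called (0.25, limma, adjusted p = 0.052). Of 7 pluripotency markers tested, 2 were called higher and 1, Klf4, lower (114.4 against 223.1 TPM). Summed germ cell markers were lower in XX EGC (148.8 to 166.3 against 184.9 to 195.7 TPM), and so were summed feeder markers (564 to 578 against 599 to 759 TPM). Single markers were mixed. Of 6 germ cell markers 3 were called lower and 1, Dazl, higher (1.12), and of 13 feeder markers 3 were called higher and 2 lower. The part of these markers in the result was not tested.

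The 4 autosomal genes called higher in XX EGC outside the paralogs were Rps6, Rps13, Rpl31 and Rpl15. Rps6 was 173.7 and 170.7 TPM in XX against 101.4, 76.8 and 77.3 TPM in XY, a log2 difference of 1.02 ± 0.18 (limma, adjusted p = 0.00054). With its copies it stood at 4229 TPM (mean, n = 2) and 4409.9 ± 118 TPM (SD, n = 3), and the difference was -0.060 (adjusted p = 0.54). Rps13 went from 0.57 to -0.0087, Rpl31 from 0.45 to -0.041 and Rpl15 from 0.35 to 0.15 (adjusted p = 0.099). None of the 4 was called higher with copies added.

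The 2 comparisons share no library. On single rows, 4 genes were called higher in both (57.1% of the ESC list and 50% of the EGC list): Rpl10l, Rpl36a, Rpl39l and Rps4x. With copies added the 6 genes called higher were the same in both, the 4 X-linked genes and the paralogs Rpl10l and Rpl39l. Lower in both were 23 genes on single rows (44.2% and 95.8% of the lists) and 30 with copies (51.7% and 96.8%). Of all genes tested, 1690 were lower in both on single rows (63.04% of the ESC and 52.0% of the EGC list), and 2274 were higher in both (60.1% and 62.5%). With copies added, 1689 of all genes were lower in both (63.3% and 52.0%) and 2285 higher in both (60.2% and 62.7%). Genes lower in both included Rpl13a, Rpl23a, Rpl3, Rpl4, Rps19 and Rps25.

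**Figure D4:**
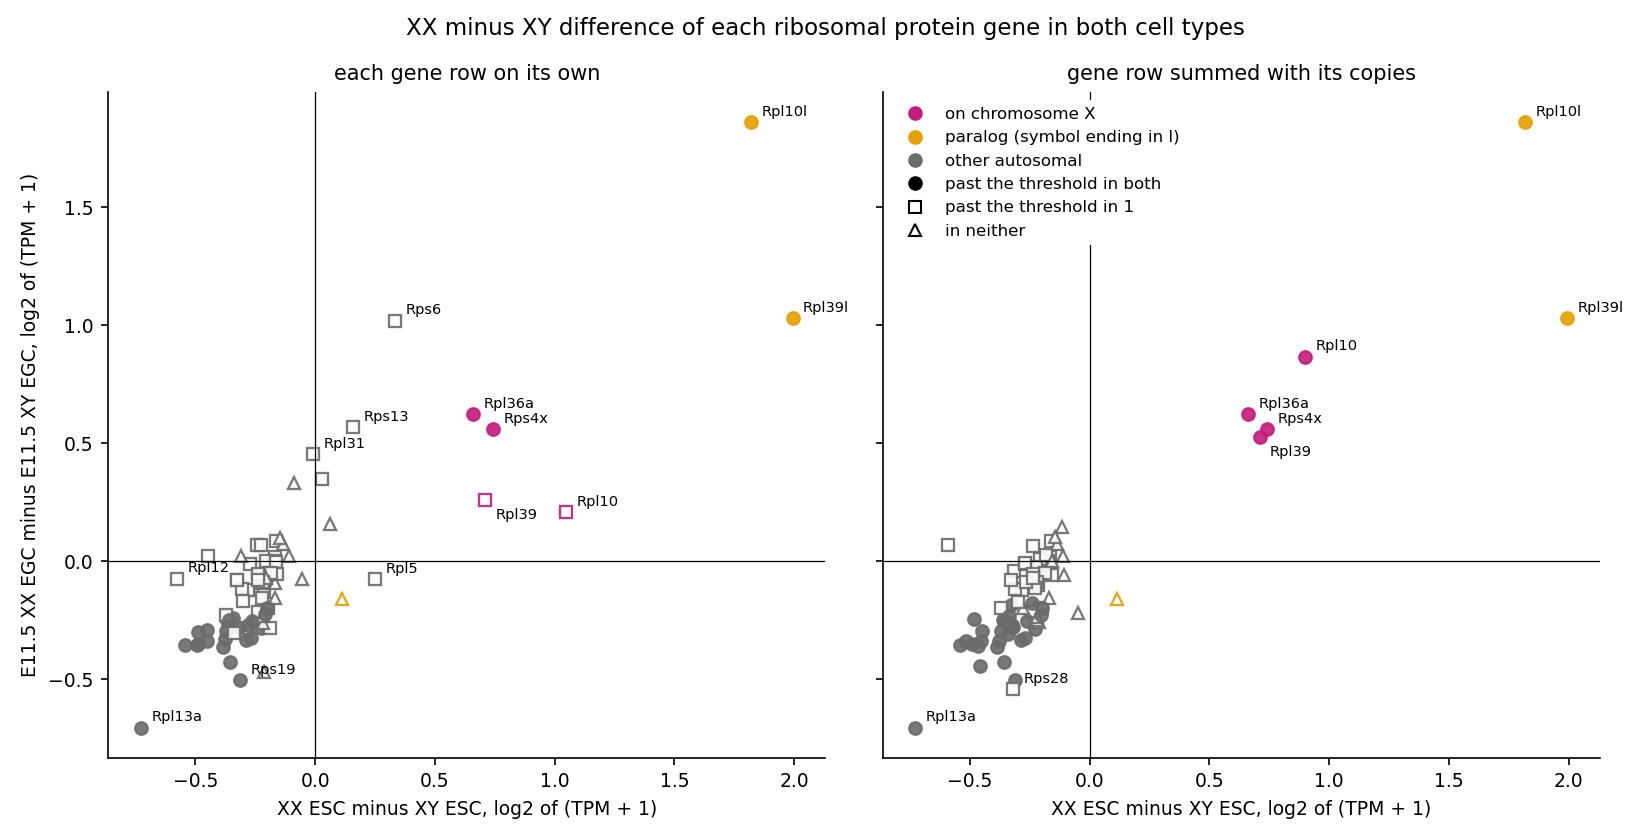
XX minus XY difference, log2 of (TPM + 1), in ESC (horizontal) and in E11.5 EGC (vertical) for each gene, on single rows (left) and with copies added (right); colour marks chromosome X and paralogs and shape the comparisons passed. With copies the 4 X-linked genes and Rpl10l and Rpl39l are the only ones called higher in both, and all 73 other autosomal genes lie below 0 on the horizontal axis.

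The XX minus XY difference itself was compared between cell types. On single rows 2 genes had a larger and 3 a smaller difference in EGC than in ESC, against 6.08% and 9.51% of all genes tested. Rpl31 (0.46 ± 0.13) and Rpl15 (0.32 ± 0.08) were larger, and Rpl10 (-0.84 ± 0.25), Rpl39l and Rpl5 (-0.33 ± 0.10) smaller (limma interaction, adjusted p = 0.034, 0.021, 0.038, 0.042 and 0.0496). Rpl15 was not called without EGC 7 or 9, nor Rpl31 without the filter or without any one of EGC 5, 6 and 7 or ESC 1, 2, 5 and 6. With copies the difference for Rpl10 was -0.035 (adjusted p = 0.80), for Rpl5 0.13, for Rpl31 0.27 and for Rpl15 0.26, none called. With copies 1 gene was larger and 1 smaller, against 6.23% and 9.66% of all genes tested. Rpl39l was called again. These counts moved with single libraries. Larger differences numbered 0 without EGC 7, 1 without EGC 5, 6 or 9 or ESC 1, 2 or 6, 5 without EGC 1 or 2 and 6 without ESC 3. Smaller ones numbered 0 without EGC 4, 5 or 9 or ESC 4 or 6, and 1 without EGC 6 or ESC 1, 3 or 5. As a share of calls, larger differences were 40% as deposited, 80% with median-ratio scaling (4 and 1) and 71.4% with quantile normalisation (5 and 2).

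Between embryonic stages of the XY germ cell lines, the split between directions depended on scaling. Of 79 genes, 14 were higher and 12 lower at E12.5 than at E11.5, against 26.3% and 11.4% of all genes. With copies they were 9 and 12, against 26.4% and 11.4%. Median-ratio scaling gave 2 higher and 15 lower (11.8% of calls higher against 53.8%), and quantile normalisation 18 and 10. The median of all genes was 0.098 as deposited and 0.014 with median-ratio scaling. Without EGC 3, EGC 5 or EGC 6 the number called higher was 8, 5 or 9. Mitochondrial transcripts took 4.99% to 5.61% of TPM at E12.5 and 6.70% to 7.85% at E11.5. Summed pluripotency markers were 7209 to 8507 and 10293 to 11576 TPM, and summed germ cell markers 213.8 to 258 and 184.9 to 195.7 TPM. None of these ranges overlapped, while those of summed feeder markers did (727 to 841 and 599 to 759 TPM). Single markers were mixed. Of 7 pluripotency markers tested, 1 was called higher at E12.5 and 3 lower. Of 6 germ cell markers 3 were called higher and 1, Prdm1, lower, and of 13 feeder markers 2 and 2. The part of these markers and of mitochondrial transcripts in the result was not tested.

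The largest stage differences sat on rows with copies. Rpl27, a large-subunit protein, was 172.1, 195.1 and 142.3 TPM at E12.5 and 339.98, 302.4 and 313.3 TPM at E11.5, a fall of 0.91 ± 0.13 (limma, adjusted p = 0.00036). With its copies it stood at 3675 ± 66.9 and 3847 ± 94.9 TPM (SD, n = 3 each), a difference of -0.066 (adjusted p = 0.43). Rps12, a small-subunit protein, went from 0.64 to 0.12, Rps6 from 0.51 to -0.016, Rps13 from 0.56 to -0.22, Rpl10 from -0.46 to -0.078 and Rpl5 from -0.44 to 0.031. Among the differences called on both scales were those of Rpl36a (-0.35 ± 0.08; adjusted p = 0.0039 on the row and 0.0035 with copies), Rps7, which binds MDM2 (-0.30 ± 0.06; 0.0016 and 0.0015), and Rpl18 (0.30 ± 0.06; 0.0017 and 0.0015). The row of Rps7 was 1072, 1186 and 1126 TPM at E12.5 and 1412, 1323.5 and 1435 TPM at E11.5, without overlap.

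**Figure D5:**
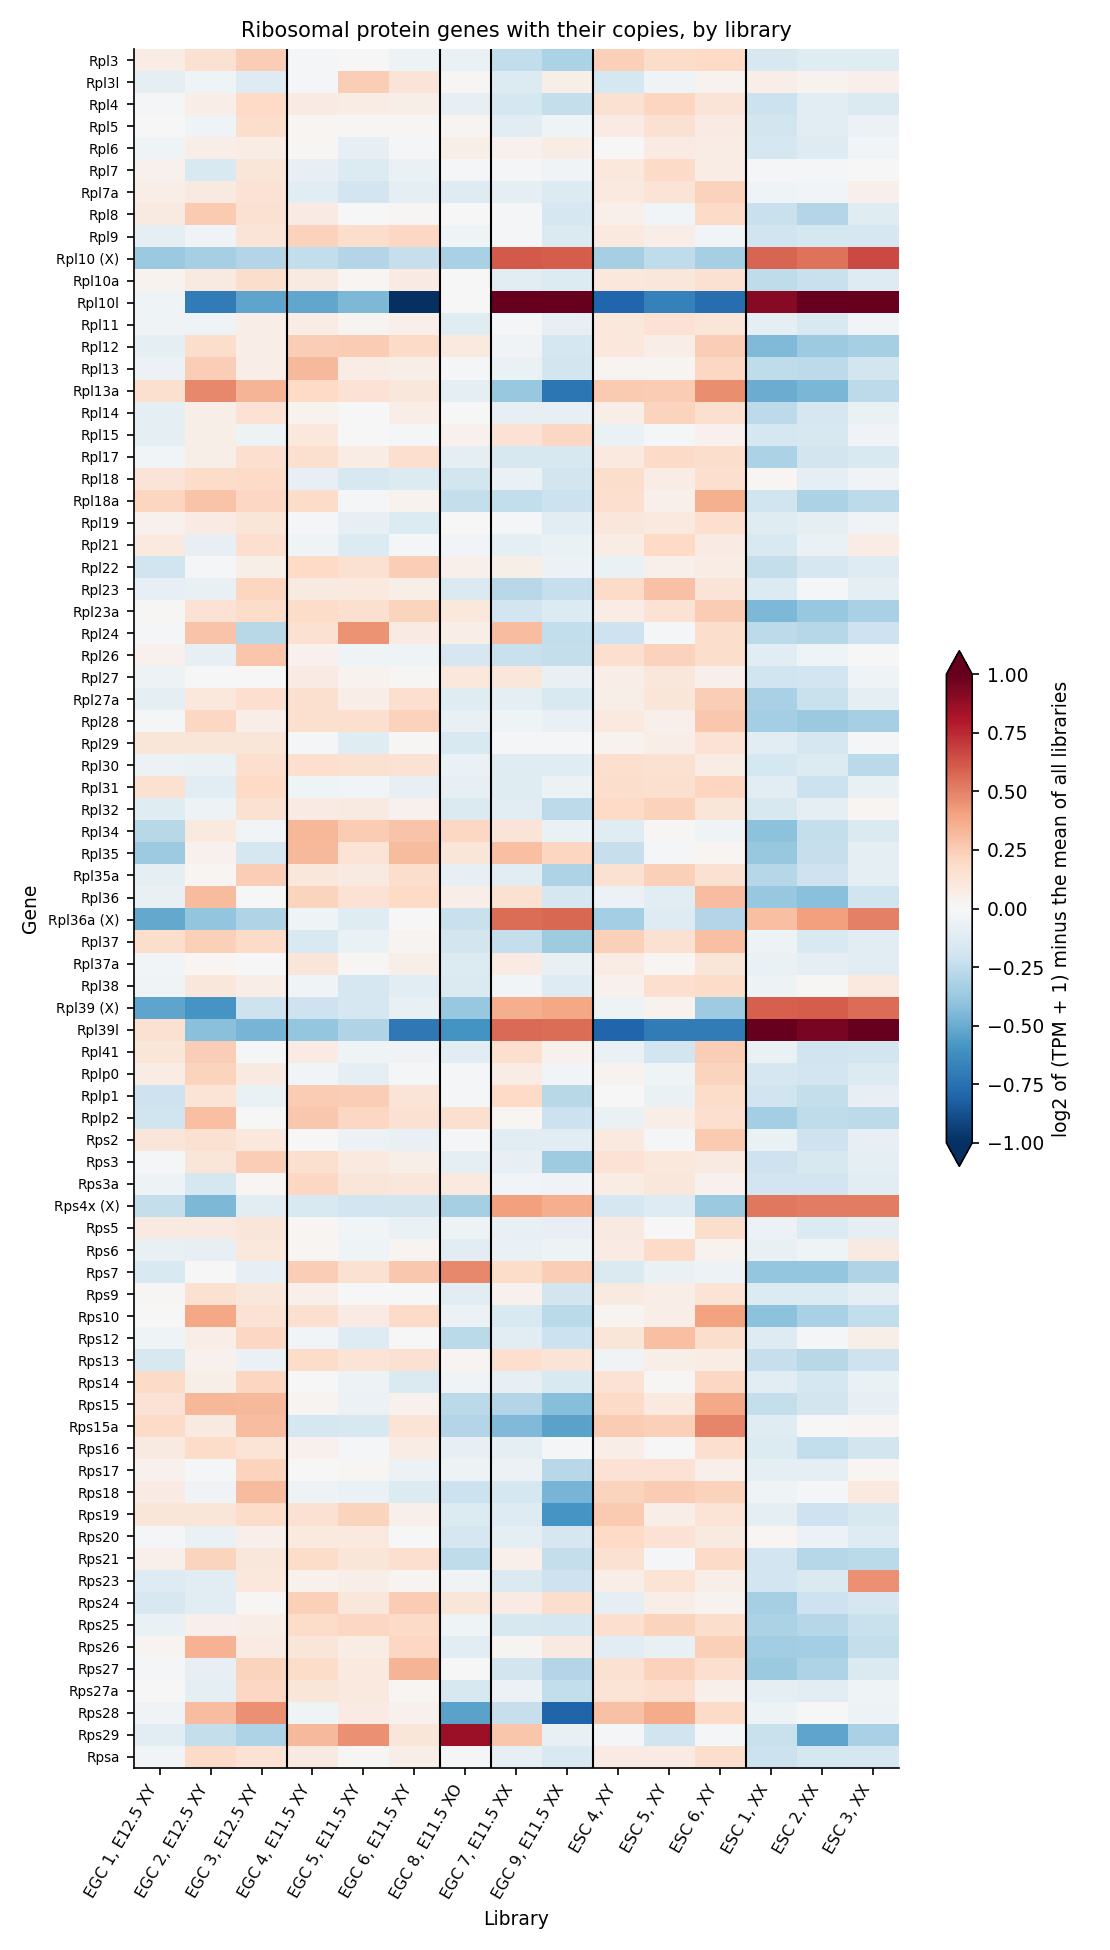
Level of 78 of the genes with their copies in each library, as log2 of (TPM + 1) minus the gene's mean over all libraries (colour, ending at -1 and 1), genes in rows and libraries in columns grouped by header label. The 4 X-linked genes with Rpl10l and Rpl39l are high in the XX columns.

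Between E11.5 XY EGC and XY ESC, 5 of 79 genes were higher and 14 lower, against 12.2% and 13.4% of all genes tested, and with copies 4 and 12, against the same shares. Rpl27 (0.92), Rpl10 (0.83) and Rpl5 (0.47) led on their rows and were -0.032, 0.050 and -0.094 with copies. Rpl34 (0.33 ± 0.09, and 0.34 with copies) and Rps7 (0.31 ± 0.06) were called on both scales, Rpl34 not without EGC 4 or ESC 4. Among those lower, Rps12 was 3081 ± 665 TPM in EGC and 5205 ± 483 TPM in ESC (-0.77 ± 0.14; adjusted p = 0.0023) and -0.25 with copies (adjusted p = 0.032). Rps15a fell by 0.39, Rpl3 by 0.27 (by 0.22 with copies) and Rps28 by 0.32 (0.26 with copies, adjusted p = 0.18); Rps28 was also not called without the filter, EGC 6, ESC 4 or ESC 6, nor Rps15a without ESC 6. The number called lower was 8 without EGC 5, 6 without EGC 6 and 7 without ESC 6. Quantile normalisation gave 8 higher and 14 lower, 36.4% of calls higher against 26.3%. Mitochondrial transcripts took 6.70% to 7.85% of TPM in these germ cell lines and 4.94% to 5.49% in XY ESC, and summed pluripotency markers were 10293 to 11576 and 8651 to 9037 TPM. Of 7 pluripotency markers tested, 2 were called higher in EGC and 0 lower. Of 13 feeder markers 5 were called higher (Postn, Col1a2, Col3a1, Col1a1 and Bgn) and 2 lower. The ranges of the feeder sum overlapped (599 to 759 and 621 to 665 TPM). Some feeder markers varied widely within E11.5 XY EGC, such as Col3a1 (1.21 to 15.1 TPM) and Acta2 (4.36 to 107.6 TPM). The part of these markers and of mitochondrial transcripts in the result was not tested.

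Between E12.5 XY EGC and XY ESC no gene was called by limma in either direction, where 3.19% and 0.166% of all genes were, nor with copies (3.23% and 0.167%). At an unadjusted p under 0.05 the counts were 3 higher and 7 lower, against 19% and 2.9% of all genes, and 1 gene was called lower without EGC 3. Between E11.5 XX EGC and XX ESC, 9 were higher and 4 lower, against 4.09% and 8.44% of all genes, and with copies 8 and 3, against 3.98% and 8.53%. Rps7 was 1349.8 and 1410.0 TPM in the germ cell lines against 907.6, 911.7 and 965.9 TPM in the stem cell lines, a difference of 0.57 ± 0.06 on the log2 scale (limma, adjusted p = 0.00054), and was 0.57 with copies. Rpl28 (0.43, and 0.29 with copies), Rps26 (0.36) and Rps24 (0.34) were also called higher on both scales, but not without the filter or without EGC 7 or 9, while Rpl27 went from 1.34 to 0.17 with copies. Rps15a fell by 0.46 and Rps18 by 0.33, neither called without EGC 7 or 9. Rps18 and Rps26 were not called under median-ratio or quantile scaling either. Rpl39 fell by 0.54 on its row and gave -0.21 with copies, and Rps12 gave -0.64 and -0.13. The number called higher was 2 without EGC 7, EGC 9 or ESC 1, 3 without ESC 2 and 5 without ESC 4; that called lower was 0 without EGC 9 and 2 without EGC 7, ESC 1 or ESC 2. Quantile normalisation gave 4 higher and 5 lower, 44.4% of calls higher against 69.2%. Summed germ cell markers were 148.8 to 166.3 TPM in XX EGC and 208.2 to 245.7 TPM in XX ESC. Pluripotency markers summed to 12621 to 13966 and 14221 to 14813 TPM, and feeder markers to 564 to 578 and 601 to 639 TPM. Of the 6 germ cell markers 0 were called in either direction, and of 7 pluripotency markers tested 0 were called higher and 1 lower. Single feeder markers were mixed: of 13 tested, 3 were called higher in XX EGC (Col1a1, Col1a2 and Bgn). Only 1, Fn1, was called lower (116.7 against 215.1 TPM), and the median log2 difference of the 13 was 0.52. The part of these markers in the result was not tested.

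Over all 9 EGC against 6 ESC libraries no member was called by limma in either direction, beside 0.0232% of 12909 genes in each, nor with copies, beside 0.0234% in each. At an unadjusted p under 0.05 there were 7 higher and 2 lower, against 5.17% and 3.84% of all genes, and none of the alternative settings or left-out libraries gave a call. Rps7, called in both E11.5 contrasts within a karyotype, was not called here.

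Proteins of the ribosome outside the symbol rule gave 7 tested rows. Rpl22l1, a paralog of Rpl22, was 370 ± 60.4 TPM at E12.5 and 748 ± 67.0 TPM at E11.5 in XY EGC (-1.02 ± 0.13; adjusted p = 0.00015), and was higher in E11.5 EGC than in ESC in XY (0.59) and XX (0.66) cells. Rpl22 itself, which binds RNA and is needed for lymphocyte development, was -0.25 ± 0.07 between the stages (limma, adjusted p = 0.015), and not called without EGC 1 or EGC 6. Rps27l, a paralog of Rps27 induced by p53, was higher in XX than in XY in ESC (1139 ± 20.1 against 912 ± 33.3 TPM, 0.32 ± 0.05) and in EGC (0.46 ± 0.06). The Rps27 copy Gm9846 was lower in XX (4994 ± 412 against 6843 ± 206 TPM in ESC, -0.46 ± 0.09; -0.44 ± 0.10 in EGC; adjusted p = 0.0012 and 0.0029). Gnb2l1, the scaffold also called Rack1, fell by 0.28 in XX ESC and by 0.20 in XX EGC. Fau and Rpl36al were not called.

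Genes that serve ribosome production gave mixed counts. Each gene named from these lists passed at a limma adjusted p of at most 0.0078. Unlike the members, genes of these lists were not separated by chromosome, so any X-linked ones are counted with the autosomal ones. Genes named here as higher in XX may be X-linked too, and their rise is not one of the list as a whole. The shares of all genes called higher and lower were 27.3% and 19.3% in XX ESC and 26.2% and 23.4% in XX EGC. Of 18 translation factors known to have TOP messages, 0 were higher and 6 lower in XX ESC (median -0.09), among them Eif3k (-0.31 ± 0.05), and 2 were higher and 3 lower in XX EGC, among them Eif4b (-0.39 ± 0.05). Pabpc1, the poly(A)-binding protein, was 0.39 ± 0.07 higher at E12.5 than at E11.5. Of 39 assembly factors 7 were higher and 5 lower in XX ESC (median 0.02) and 21 higher and 3 lower in XX EGC (median 0.28); Gnl3l (0.87 ± 0.08) and Dkc1 (0.62 ± 0.06), a nucleolar GTPase and the pseudouridine synthase, rose in XX ESC and Utp3 (0.73 ± 0.10) in XX EGC. Of 19 genes of RNA polymerase I and its factors, which make ribosomal RNA, 1 was higher and 1 lower in XX ESC and 6 and 2 in XX EGC, where Polr2f was 0.68 ± 0.10 higher; Cd3eap (0.90 ± 0.10) and Polr1a (0.49 ± 0.08) were higher at E12.5. Of 19 regulators 4 were higher and 1 lower in XX ESC and 2 and 4 in XX EGC, where Tsc1 (-1.01 ± 0.14) and Rictor (-0.96 ± 0.13), of the mTOR pathway, fell; Mycn was 0.82 ± 0.11 higher in E11.5 XY EGC than in XY ESC. Of 9 quality-control genes 1 was higher in XX ESC and 1, Hbs1l (-0.42 ± 0.07), lower in XX EGC; Gcn1l1 (0.54 ± 0.10) and Zfp598 (0.33 ± 0.08) were higher at E12.5.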

How the data were processed

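Expression values in TPM were deposited by the authors in 1 table of 34372 genes. Per the submitters' processing notes, edgeR 3.8.6, HTSeq 0.6.0, STAR 2.3.0, Picard 1.100 and SAMtools 0.1.18.0 were used with GRCm38 (mm10). Their roles, and the handling of reads that match several places, are not given in the sources used here. Header labels were read with a blank cell belonging to the label at its left. In R 4.3.3, limma 3.58.1 with a mean-variance trend was fitted to log2(TPM + 1), with 1 mean per label (9 residual degrees of freedom, XO with 1 library), for genes with at least 1 TPM in 2 libraries (6 for EGC against ESC). Tests were 2-sided with Benjamini-Hochberg adjustment over all genes and a threshold of 0.05. The scripts were tested on simulated data. Copies were rows whose GENCODE M21 transcripts matched a member at 90% identity or more over 50% of their length (BLAST 2.17.0; 8421 rows searched); summing them was chosen after seeing the data. Python 3.11.15, pandas 2.3.3 and matplotlib 3.10.9 were used for tables and figures. Named genes were the X-linked genes, the paralogs, the 3 largest changes in each direction per comparison, the 5 highest and 5 lowest levels, genes of textbook roles, and up to 3 genes with the smallest p per list; the few others were chosen after their values were seen. Alternatives were a pseudocount of 0.1, no filter, median-ratio and quantile scaling, the members left out of the sum, fits of the compared labels alone and each library left out. The members and lists were chosen with earlier results of these data known. Results of a few genes are not reported here by name.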

Additional observations from a re-analysis of the deposited data

Results flagged for a closer look

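In 78 groups of members' values (EGC and ESC libraries), 3 had a highest library set apart from the rest. Chance gives about 1 in 20 where the libraries of a group are alike, and the count was not above that. These groups pool karyotypes and stages, however, so that rate is only a rough guide here. Rpl39 was 3407 TPM in EGC 7, with the next EGC library at 2464 and the lowest at 1761 TPM. This flag is on the single row. EGC 7 and EGC 9 are the XX EGC libraries, and the copy row Rpl39-ps was far higher in EGC 9, as described above. Rps6, most of whose level is held by copies, was 171.4 TPM in ESC 3, with the next at 109.3 TPM. Rpl28 was 240.5 TPM in EGC 2, with the next at 205.4 TPM. With copies Rpl28 was 3753 TPM there and 3809.6 TPM in EGC 6.

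For 5 genes the XX minus XY difference differed between E11.5 EGC and ESC by the limma interaction test: Rpl5 (-0.33), Rpl10 (-0.84), Rpl15 (0.32), Rpl31 (0.46) and Rpl39l (-0.96). With copies added only that of Rpl39l remained called.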

How the results depend on the processing

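Settings that moved a count by over 1.5 times were these. Quantile normalisation gave 21 genes lower in XX ESC, 8 higher in E11.5 XY EGC against XY ESC, 4 higher in XX EGC against XX ESC and 5 in the interaction. Median-ratio scaling gave 2 higher at E12.5, and 4 higher and 1 lower in the interaction. Without the filter, 6 were higher at E12.5, 8 lower in E11.5 XY EGC against XY ESC, 3 higher and 1 lower in XX EGC against XX ESC, and 1 higher and 0 lower in the interaction. With only both labels in the fit, XX EGC against XX ESC gave 3 and 2. Copies added gave 9 higher at E12.5 and 1 each way in the interaction. Shares of all genes called are given only for the values as deposited and with copies. Counts under the other settings and with libraries left out have no such share beside them.

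The summed level differed by -2.73 points between XX and XY ESC, by -4.01 with copies and -3.39 without the X-linked genes. Leaving out 1 library gave 7 to 8 higher and 33 to 53 lower in XX ESC, 7 to 9 and 10 to 27 in XX EGC, 5 to 14 and 8 to 13 between stages, 4 to 6 and 6 to 15 in E11.5 XY EGC against XY ESC, 0 to 0 and 0 to 1 for E12.5, 2 to 11 and 0 to 4 in XX EGC against XX ESC, 0 to 6 and 0 to 3 in the interaction, 0 in both directions for EGC against ESC, and -3.07 to -2.37 and -2.42 to -1.04 points for the sums. The cause of these shifts was not tested.

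Adding copies turned the sign of Rpl5 in XX ESC (-0.22), Rps6 (-0.060), Rps13 (-0.0087) and Rpl31 (-0.041) in XX EGC, Rps6 (-0.016), Rps13 (-0.22) and Rpl5 (0.031) between stages, Rpl27 (-0.032) and Rpl5 (-0.094) in E11.5 XY EGC against XY ESC, and Rpl5 in the interaction (0.13). Of the results of named genes, 62 kept direction and call with copies, 16 lost the call and 10 turned sign. Under the left-out libraries 1158 kept them and 162 lost the call, and under the other settings 450 and 73, with no sign turned. No paired analysis was possible because replicate numbers are names in accession order and do not pair libraries across labels. Depth is unknown, so how far counting noise limits low rows such as Rpl10l and Rpl39l cannot be given.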

Other observations

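Gm9385, a copy of Rpl24, was at 0.4 and 0.5 TPM in EGC 3 and EGC 9 and between 159.1 and 1152 TPM in the other 13 libraries. Gm12918, a copy of Rpl13, was at 0 TPM in EGC 2 and between 186.6 and 897.5 TPM in the others. Rps29 with its copies reached 7258 TPM in the XO library, where the other 14 libraries lay between 2776 and 5493 TPM.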
